A study of Mus musculus with 12 samples.

Results

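Among the 6 SCA1 libraries, 2 stood apart by the share of their fragments that mapped to more than 1 place in the genome. They were the libraries of SCA1 sedentary mouse 16 and SCA1 exercise mouse 55, and they were set against the other 4 SCA1 libraries, from sedentary mice 194 and 195 and exercise mice 122 and 198. The rule took SCA1 libraries above 5% multimapping, which 2 of the 12 libraries of the study met. Mouse 16 had 6.38% and mouse 55 had 6.33%, both above the limit, while mouse 194, at 2.69%, was the nearest SCA1 library below it. The WT libraries reached 3.46%. Because the 2 libraries were chosen by this measured share, it is given as a description only.

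Bulk RNA was sequenced from the cerebellum of mice aged 16 weeks, with 1 library per mouse and 3 mice for each of the 4 combinations of genotype (WT or SCA1) and housing (sedentary or exercise). SCA1 mice carried an expanded CAG repeat knocked into 1 allele of the mouse Atxn1 gene and were labelled Het, so all 6 libraries compared here share this genotype. Sedentary mice were housed in groups, whereas exercise mice were housed alone with a running wheel from 4 weeks of age, so wheel and housing cannot be told apart. Mice of both sexes were used, and the labels do not give the sex of a mouse. Ribosomal RNA was depleted and strand-specific libraries were made from total RNA. For 2 samples with a low RNA integrity number the study used a shorter fragmentation and fewer PCR cycles. The sources used here do not say which mice these were, so the part of that preparation in the results below was not tested.

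The cerebellum sits on the roof of the brainstem and is joined to it by myelinated peduncles. The neurons of the cerebellum proper are granule cells, Purkinje cells and a few classes of interneurons, with deep nuclei embedded in white matter. Neurons that use acetylcholine, serotonin or noradrenaline as a transmitter, and cells that express Hox genes, the transcription factors that mark position along the hindbrain and spinal cord, lie mainly in the brainstem and caudal to it. In bulk RNA, more cells of a type and more RNA per cell cannot be told apart. Markers of cerebellar neurons were abundant in all 12 libraries, with at least 999 CPM (gene counts scaled to the library total) of the granule cell gene Fat2.

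Outside the genome-wide multimapping, the 2 libraries differed from the others in where their fragments fell. Fragments mapped outside annotated exons of the counted strand made up 39.3% in mouse 16 and 44.1% in mouse 55, against 52.7% and 58.7% in sedentary mice 194 and 195 and 54.9% and 52.4% in exercise mice 122 and 198. Both were below all the other SCA1 libraries and below the 46.0% to 56.8% of the WT libraries. Fragments that overlapped more than 1 gene made up 1.18% and 1.06% in mice 16 and 55, against 0.558% to 0.710% in the other SCA1 and 0.592% to 0.820% in the WT libraries. Unmapped fragments did not separate the libraries, with 2.92% and 2.52% against 2.82% to 4.12%. Counts on genes were 28383723 in mouse 16 and 25312382 in mouse 55, against 20556802 to 23945018 in the other SCA1 libraries.

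**Figure D1:**
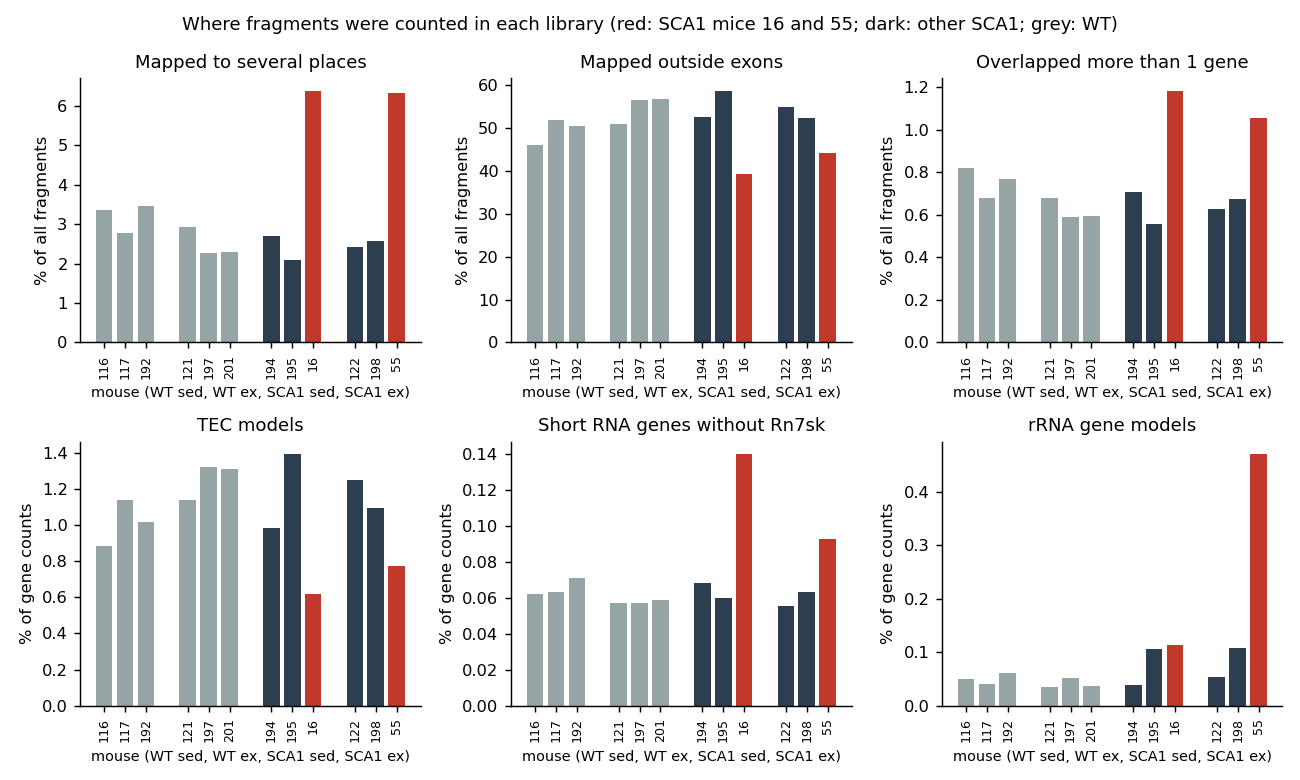
Share of fragments or of gene counts (y axis, percent) in each of the 12 libraries (x axis, mouse number; from left to right sedentary then exercise WT, and sedentary then exercise SCA1). Each bar is 1 library. Mice 16 and 55 (red) had the highest multimapping (6.38% and 6.33%) and the lowest share outside exons (39.3% and 44.1%), whereas rRNA gene models were high in mouse 55 only (0.470% against 0.113% in mouse 16).

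With treatment held as a block, only 9 arrangements of the libraries exist, so an exact permutation test cannot give a two-sided p below 0.111. That smallest value was reached for the share outside exons (12.96 percentage points lower), for ambiguous fragments (0.477 points higher) and for 6 of the other 12 measures. Those 6 were the counts on genes, TEC models, processed pseudogenes, short RNA genes, rRNA models and the number of genes with at least 10 counts. Mitochondrial counts made up 1.61% and 2.19% in mice 16 and 55 against 1.37% to 2.53% in the other SCA1 libraries, with no separation (exact permutation p = 0.778).

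Across genes, the 2 libraries were compared with the other 4 in edgeR's quasi-likelihood test with treatment as a block. The value for each gene is the log2 fold change (log2FC) of the 2 libraries minus the others, and calls needed both a p below 0.05 after Benjamini-Hochberg adjustment and a log2FC beyond 0.5 in either direction. Of 20278 genes tested, 2124 (10.5%) were called higher and 1544 (7.61%) lower, together 18.1%. Among protein-coding genes, 13.2% were higher and 4.78% lower, and the counts by list below are to be read beside these shares. The coefficient of biological variation, the typical spread of a gene between libraries, was 0.167 with the library class in the model and 0.287 without it, against 0.1103 in the 6 WT libraries. Of the genes called higher, 88.3% were above all 6 WT libraries in both mice. Of those called lower, 83.5% were below all 6 WT libraries in both. These shares are a description, since the genes were called for being extreme in the same 2 mice. The share over all genes tested was not computed. With size factors from protein-coding genes alone, 1769 genes were higher and 2067 lower, so the balance of direction depends on the scaling.

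The counts rested mainly on mouse 16. Without it, far fewer genes were called, nearly all of them higher. This fit set mouse 55 alone against the 2 other SCA1 exercise mice, with the lone library assumed to vary like the others. The sedentary mice left in this fit were taken up by the treatment term and added only to the estimate of spread. Without mouse 55, 3583 genes were called. Both fits called the same 43 genes, all in the same direction. Leaving out mouse 122 or mouse 195 gave 2239 and 2478 calls. The 2 genes lower in mouse 55 alone were Adamts18, which encodes a secreted metalloprotease, and Ifi203, an interferon-inducible gene.

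The difference of each library from the 2 other mice of its own group shares no library between treatments. Over the 15099 genes with an average of at least 1 on the log2 CPM scale, 77.9% had the same sign in both. Pearson's r was 0.704 and Spearman's rho 0.728 across genes, which are not independent replicates. No gene was called for a difference between treatments in edgeR (0 of 20278, with 1496 at an unadjusted p under 0.05), whereas DESeq2 called 42.

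**Figure D2:**
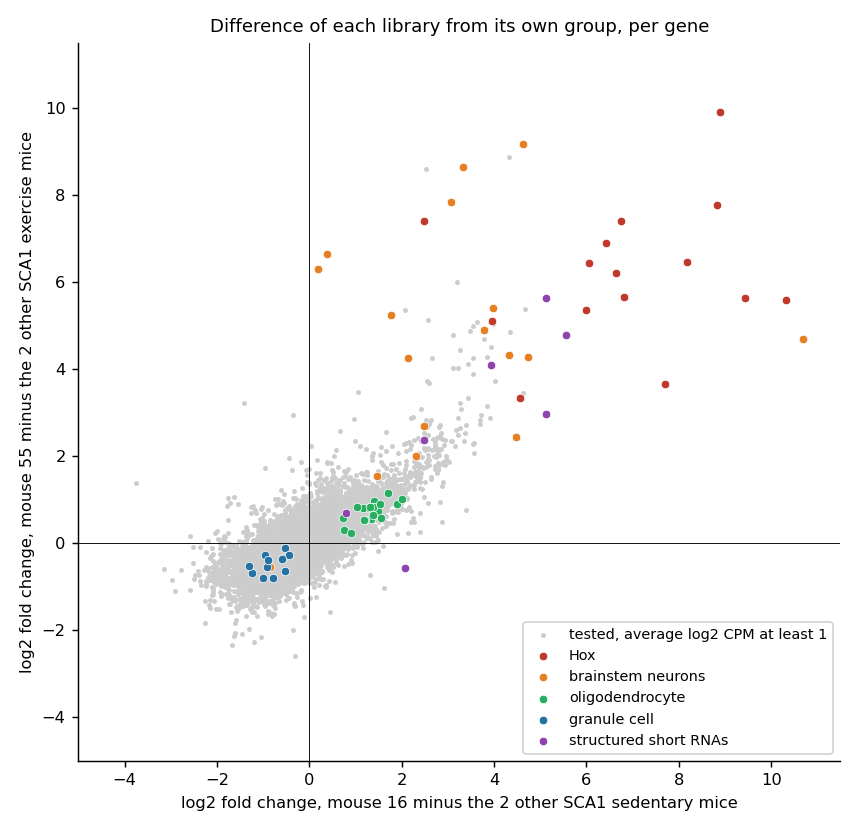
Log2 fold change of mouse 16 from the 2 other SCA1 sedentary mice (x axis) against that of mouse 55 from the 2 other SCA1 exercise mice (y axis), 1 point per gene. Grey points are the 15099 better expressed genes, and colours mark gene lists. Hox genes lie far up on both axes, oligodendrocyte genes lie near 1.35 and 0.81, and 2 brainstem genes, Slc6a2 and Dbh, are high on the y axis only.

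Hox genes were the clearest group. All 15 genes of the Hox list were tested and were higher, with a median log2FC of 6.43. It was 6.26 with genes without a count in the other SCA1 libraries set at their bound, while the median over all genes was −0.02. None of the 15 had 10 counts in each of the 6 libraries, so they passed the filter on low counts through mice 16 and 55 and had to differ. Their levels are therefore a description. Summed over the list, Hox genes had 47.3 CPM in mouse 16 and 64.7 CPM in mouse 55, against 0.764, 0.2404, 0.167 and 1.76 CPM in mice 194, 195, 122 and 198 and 0.113 to 3.51 CPM in WT mice.

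Hoxb5 reached 8.32 and 9.91 CPM in mice 16 and 55. It had 0, 0.0481, 0 and 0.214 CPM in mice 194, 195, 122 and 198, and at most 0.969 CPM in a WT mouse. The 2 libraries were thus clear of all 10 others for this gene. Hoxb8, a more posterior member of the same cluster, had 2.40 CPM in mouse 16 and 10.5 CPM in mouse 55, from 68 and 265 fragments. The other SCA1 libraries had 2 fragments in all, a ratio of 285 (95% counting interval 78.3 to 2363), and no WT library had any. Hoxb6 had 71 and 126 fragments in mice 16 and 55 and 0 in the other 10 libraries, which is at least 112-fold higher than the other SCA1 libraries against a limit of 3 counts over those 4. The smallest differences were those of Hoxd3 (0.670 and 0.872 CPM, log2FC 3.73) and Hoxa2 (0.670 and 0.912 CPM, log2FC 3.77). The listed genes come from all 4 Hox clusters and run from Hoxa2 and Hoxb2 to Hoxb8. This range was set by the list, and Hox genes outside it are not described here. Neighbouring Hox genes overlap on the same strand, so the split of fragments between them is uncertain.

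**Figure D3:**
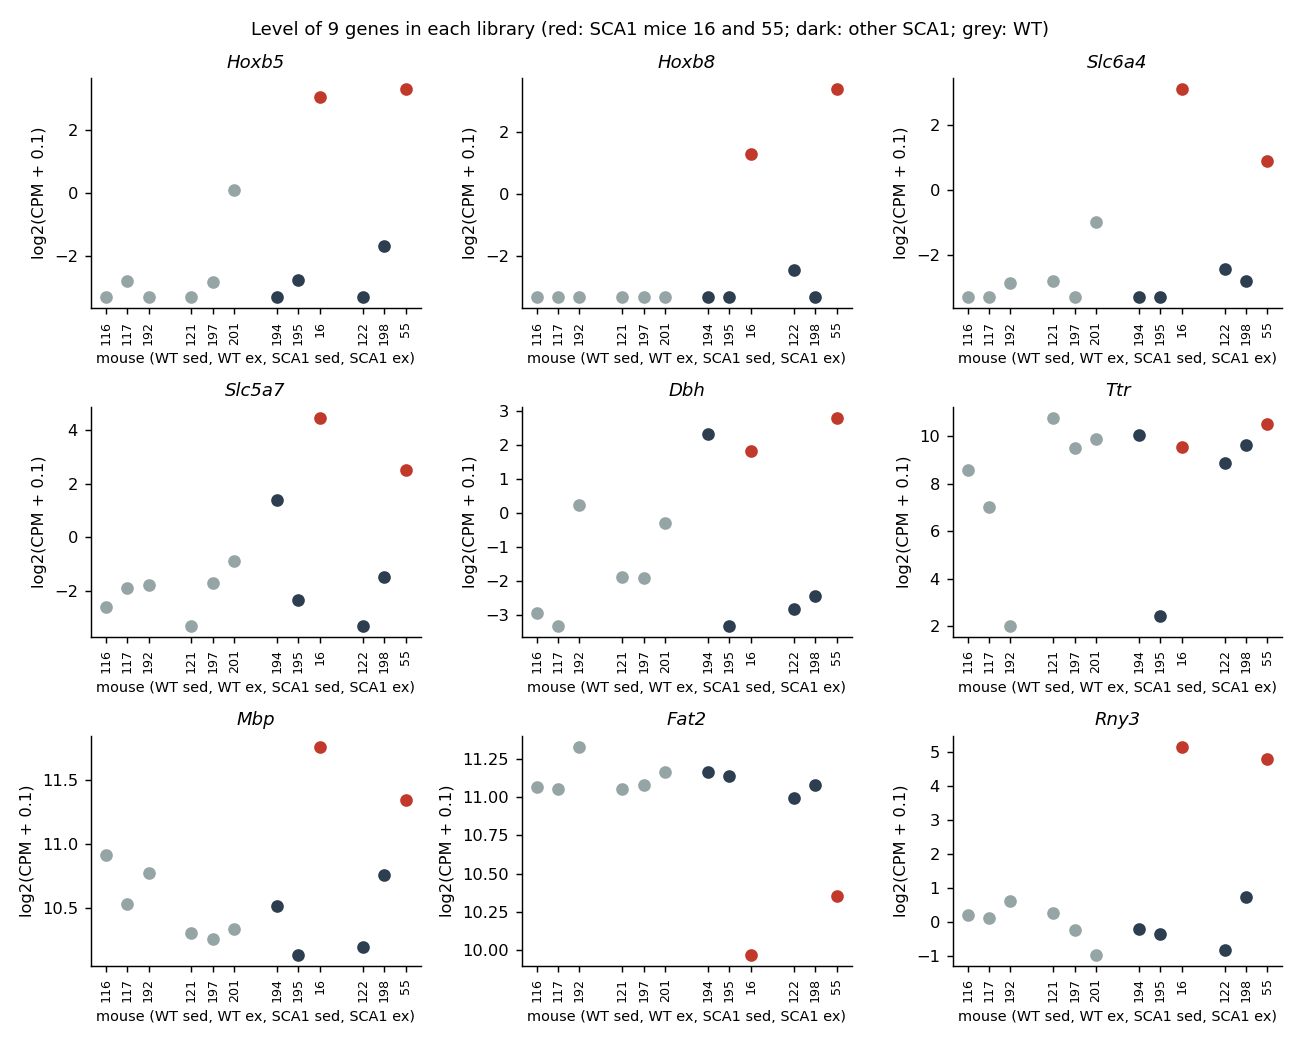
Level of 9 genes in each of the 12 libraries (y axis, log2 of CPM plus 0.1; x axis, mouse number by group), 1 point per library. Hoxb5, Hoxb8, Slc6a4, Slc5a7, Mbp and Rny3 were highest in mice 16 and 55 (red) and Fat2 was lowest there. Dbh was also high in mouse 194 (4.92 CPM), and Ttr ranged from 3.88 to 1743 CPM over all libraries without following the 2 mice.

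Of the 20 listed genes of brainstem neurons, 17 were tested, 14 were higher and 1 was lower, with a median log2FC of 3.59. Only 4 had 10 counts in each library, so most of the others had passed the filter through the 2 mice and their calls and levels are a description too. The lower gene was Tlx3 (log2FC −0.69, adjusted p = 0.0316), a transcription factor with 4.97 and 5.43 CPM in mice 16 and 55, 7.58 to 8.78 CPM in the other SCA1 mice and 3.54 to 7.35 CPM in WT mice. Without mouse 16 none of the 17 was called.

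Cholinergic genes were high in both mice and higher in mouse 16. Slc5a7, the choline transporter of cholinergic terminals, had 21.9 CPM in mouse 16 and 5.63 CPM in mouse 55. The other SCA1 mice 194, 195, 122 and 198 had 2.50, 0.0962, 0 and 0.257 CPM. Slc18a3, the vesicular acetylcholine transporter, had 9.20 and 3.01 CPM in mice 16 and 55, 0.679 CPM in mouse 194 and 0 in mice 195, 122 and 198 and in all WT mice. Chat, which makes acetylcholine, followed them with 6.03 and 2.06 CPM, against 1.10 CPM in mouse 194 and 0 in mice 195, 122 and 198. Ecel1, an endopeptidase of neurons, had 19.3 and 8.64 CPM, against 0.192 to 1.61 CPM.

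The serotonergic genes Slc6a4, Tph2 and Htr1a also had their highest levels in the 2 mice, with a larger value in mouse 16. Slc6a4, the serotonin transporter, had 8.67 CPM in mouse 16 and 1.78 CPM in mouse 55, against 0 to 0.0833 CPM in the other SCA1 mice. Tph2, the enzyme that starts serotonin synthesis in neurons, had 15.02 and 3.01 CPM, against 0.529 to 0.764 CPM. Htr1a, a serotonin receptor that is also an autoreceptor on serotonin neurons, had 10.6 and 4.64 CPM, against 0.0833 to 0.679 CPM (log2FC 4.92). Fev, from the same list as Slc6a4 and Tph2, was too low to be tested. It had 0.529 CPM in mouse 16 and 0.119 CPM in mouse 55, against 0.297 CPM in mouse 194 and 0.129 CPM in mouse 198. Mouse 55 was thus not above all the other SCA1 mice for Fev.

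Noradrenergic genes did not follow the same line. Dbh, which makes noradrenaline, had 3.42 CPM in mouse 16 and 6.90 CPM in mouse 55, but mouse 194 had 4.92 CPM. The other SCA1 mice 195, 122 and 198 had 0, 0.0417 and 0.0857 CPM, and the gene was not called (log2FC 2.87, adjusted p = 0.130). Slc6a2, the noradrenaline transporter, had 4.09, 10.5 and 6.49 CPM in mice 16, 55 and 194 and at most 0.288 CPM in mice 195, 122 and 198 (adjusted p = 0.108). Summed over all 20 genes, mouse 194 had 47.4 CPM, between the 169 and 93.0 CPM of mice 16 and 55 and the 14.5 to 16.2 CPM of mice 195, 122 and 198, while its Hox genes stayed at 0.764 CPM. Th, shared by all catecholamine neurons, was higher (12.4 and 11.8 CPM against 2.60 to 5.98 CPM, log2FC 1.51), and the highest WT library had 10.2 CPM.

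Genes of large projection neurons, which the deep cerebellar nuclei and the brainstem share, rose in 8 of 9 cases, with a median log2FC of 1.61, and all 9 had at least 10 counts in each library. Nefm, a neurofilament subunit of thick axons, had 271 and 231 CPM in mice 16 and 55 against 66.5 to 116 CPM in the other SCA1 mice (log2FC 1.52 ± 0.19 SE, adjusted p = 0.000924). Slc6a5, the transporter of glycinergic neurons, had 184 and 144 CPM against 37.8 to 54.8 CPM (log2FC 1.90). Glra1, a glycine receptor subunit of the spinal cord and brainstem, had 65.2 and 58.3 CPM against 1.78 to 9.68 CPM (log2FC 3.38). Slc17a6, the glutamate transporter of brainstem and thalamic vesicles, had 123 and 61.3 CPM against at most 21.2 CPM, and WT mice had up to 40.8 CPM. Lhx9, also called higher, had 8.11 and 1.74 CPM in mice 16 and 55, and WT mouse 192 was above both at 9.84 CPM. Without mouse 16, Slc6a5 was the 1 gene of the list still called. Of the 11 listed genes of midbrain and forebrain, 6 were tested and 3 were higher, against 13.2% of protein-coding genes. These calls rested on mouse 16, and 3 of the 6 had 10 counts in each library. Lhx2, a transcription factor of the forebrain, had 3.49 and 2.10 CPM in mice 16 and 55, 1.02 CPM in mouse 194 and at most 0.144 CPM in mice 195, 122 and 198, while a WT mouse had 2.49 CPM.

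Oligodendrocyte genes were higher in 19 of 20 cases, with a median log2FC of 1.07 (1.35 in mouse 16 and 0.81 in mouse 55), and all had at least 10 counts in each library. Mbp, which compacts myelin, had 3469 CPM in mouse 16 and 2606 CPM in mouse 55. It had 1464, 1124, 1177 and 1732.5 CPM in mice 194, 195, 122 and 198 and 1229 to 1932 CPM in WT mice (log2FC 1.11 ± 0.21 SE, adjusted p = 0.00637). Both mice thus lay above the other 10 libraries. Mobp, another myelin protein, had 758 and 720 CPM against 325 to 437 CPM, and Trf, the iron carrier of oligodendrocytes, 752 and 539 CPM against 313 to 415 CPM. Aspa missed the call (log2FC 0.53, adjusted p = 0.0704), although its values in the 2 mice also lay above the other 4. Without mouse 16 none of the 20 was called, while 18 were called without mouse 55.

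Precursor genes were higher in 5 of 9 cases: Pdgfra, the receptor that defines these cells, had 45.1 and 37.98 CPM against 20.0 to 22.6 CPM (log2FC 0.89), whereas Vcan had 45.6 and 57.6 CPM against 49.2 to 60.2 CPM. Genes of astrocytes and Bergmann glia were higher in 7 of 17 cases (median log2FC 0.45), and 14 of the 17 lay above the other 4 SCA1 libraries in both mice, against 26.2% of all genes. The count was 1 without mouse 16. Slc1a2, the main glutamate transporter of astrocytes, had 2050.3 and 1909 CPM against 1068 to 1348 CPM (log2FC 0.70). Glul, which turns glutamate into glutamine, had 1226 and 1138 CPM against 649 to 759 CPM (log2FC 0.73). Gfap, the filament of fibrous astrocytes, had 271 and 237 CPM against 91.2 to 117 CPM (log2FC 1.28 ± 0.13 SE, adjusted p = 0.000435), and it was called without either mouse. Slc1a3, the glutamate transporter that Bergmann glia carry densely, had 634 and 853 CPM against 673 to 823 CPM (log2FC 0.00). Slc4a4, a bicarbonate transporter of astrocytes, had 689 and 793 CPM against 751 to 842 CPM. Microglia genes were higher in 10 of 16 cases (median log2FC 0.77), among them Csf1r, the receptor these cells depend on, with 56.0 and 41.9 CPM against 25.9 to 30.4 CPM. The microglia count was 0 without mouse 16, 6 without mouse 55 and 5 without mouse 122 or mouse 195, and no precursor gene was called without mouse 16.

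**Figure D4:**
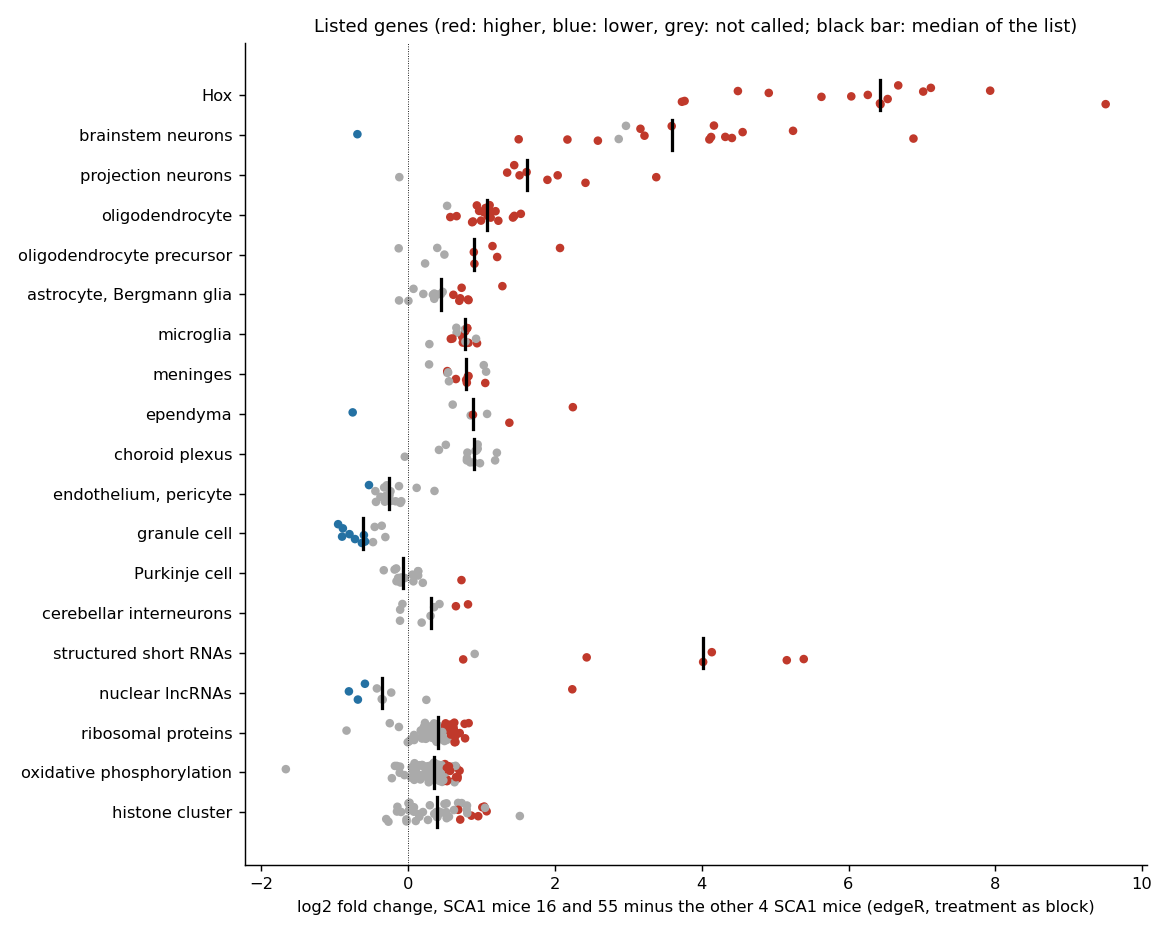
Log2 fold change of each tested gene (x axis, mice 16 and 55 minus the other 4 SCA1 mice) in 19 lists (y axis). Red and blue points were called higher and lower, grey points were not called, and black bars are list medians. The medians run from 6.43 for Hox and 4.02 for structured short RNAs to −0.62 for granule cell genes, and Purkinje cell genes sit around −0.07.

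Coverings of the brain and its ventricles gave mixed counts. Meningeal fibroblast genes were higher in 7 of 13 cases (median log2FC 0.79), such as Col1a2, a collagen chain, with 59.8 and 53.4 CPM against 25.7 to 45.3 CPM. This count fell to 0, 2, 4 and 3 without mouse 16, 55, 195 or 198. Ependymal genes, of the ciliated cells lining the ventricles, were higher in 3 of 7 cases and lower in 1. Among protein-coding genes, 13.2% were higher and 4.78% lower. Foxj1, the regulator of motile cilia, had 16.5 and 17.0 CPM against 3.94 to 7.77 CPM (log2FC 1.38), and Hydin, a cilium protein with a very long transcript, had 12.3 and 16.0 CPM against 19.5 to 26.5 CPM (log2FC −0.76). Together the 4 ependymal calls became 1 without mouse 16 and 2 without mouse 55 or mouse 122.

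No choroid plexus gene was called (0 of 15, median log2FC 0.89). Ttr, the transthyretin of the choroid plexus, had 735 and 1447 CPM in mice 16 and 55 and 1063, 5.24, 470 and 790 CPM in mice 194, 195, 122 and 198, so the groups overlapped (log2FC 0.81, adjusted p = 0.613). Without mouse 194, 12 of the 15 were called. With genes of at least 1 count tested, 11 were called. Endothelial and pericyte genes were not higher in any of 18 cases, with a median log2FC of −0.26, and Flt1, a receptor of blood vessels, was lower (52.4 and 49.5 CPM against 64.1 to 87.5 CPM, log2FC −0.54, adjusted p = 0.0254). Without mouse 16, 55, 122 or 194 Flt1 was not called.

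Granule cell genes, of the most numerous neurons of the cerebellum, were lower in 8 of 12 cases and higher in none, with a median log2FC of −0.62 (−0.85 in mouse 16 and −0.45 in mouse 55). Fat2, a cadherin of parallel fibres, had 999 CPM in mouse 16 and 1311 CPM in mouse 55. It had 2293, 2249.5, 2044 and 2159.5 CPM in mice 194, 195, 122 and 198, and at least 2121 CPM in WT mice (log2FC −0.96 ± 0.18 SE, adjusted p = 0.00637). Cadps2, which acts in vesicle release from granule cells, fell by 0.80 on the log2 scale, with 299 and 314 CPM against 480 to 553 CPM. Neurod1, a transcription factor of granule neurons, had 113 and 168 CPM against 185 to 278 CPM (log2FC −0.72). Zic1, a granule cell transcription factor, passed the adjusted p but not the fold limit (log2FC −0.48). Without mouse 16 no granule cell gene was called, and without mouse 122, 5 were.

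Purkinje cells, whose loss of function marks SCA1, had 1 higher (6.25%) and no lower gene among 16, against 13.2% and 4.78% of protein-coding genes. The median log2FC was −0.07, with −0.26 in mouse 16 and 0.21 in mouse 55. Summed over the list, mouse 16 had 6096 CPM, the lowest of all 12 libraries, and mouse 55 had 9594 CPM, against 7492 to 9040.1 CPM in the other SCA1 mice. Calb1, the calcium buffer calbindin, had 315 and 466 CPM in mice 16 and 55 and 339, 392.4, 491 and 442 CPM in mice 194, 195, 122 and 198, so the groups overlapped (log2FC −0.14, adjusted p = 0.484). Atxn1 itself was not called either (log2FC −0.27, adjusted p = 0.123), and counts do not tell its 2 alleles apart. The higher gene was Sv2c, a synaptic vesicle protein also made outside Purkinje cells, with 276 and 211 CPM against 115 to 156 CPM (log2FC 0.73, adjusted p = 0.0113). It was not called without mouse 16. Of 9 genes of cerebellar interneurons and unipolar brush cells, 2 (22.2%) were higher, Nxph1 and Lgi2, against 13.2% of protein-coding genes. Lgi2 had 168 and 163 CPM against 88.6 to 112 CPM.

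The genes above were read by where in the brain they are made. A second set of differences lay in the kind of RNA. Structured short RNAs are compact folded transcripts of RNA polymerase III or of small nuclear RNA genes. Of 12 listed genes 7 were tested and 6 were higher, with a median log2FC of 4.02. Only 3 of the 7 had 10 counts in each library, so the others passed the filter through the 2 mice, and the count was 2 without mouse 16 and 4 without mouse 55. Their sequences, from GENCODE M39, show that the 2 Y RNAs that moved together are different molecules, with capitals for the 12 bases that are their longest shared stretch. Rny1 and Rny3 encode Y RNAs, which bind the Ro60 protein, and Rnu12 is the U12 RNA of the minor spliceosome.
Rny1: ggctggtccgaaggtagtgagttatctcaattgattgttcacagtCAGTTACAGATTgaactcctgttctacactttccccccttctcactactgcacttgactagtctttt
Rny3: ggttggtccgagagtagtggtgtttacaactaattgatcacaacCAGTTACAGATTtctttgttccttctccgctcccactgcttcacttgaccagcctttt
Rnu12: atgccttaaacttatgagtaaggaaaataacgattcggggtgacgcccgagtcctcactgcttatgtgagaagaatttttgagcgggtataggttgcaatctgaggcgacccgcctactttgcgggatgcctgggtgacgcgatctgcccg

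Rny1 spans 112 bases on the minus strand of chromosome 6 of GRCm39, from 47765003 to 47765114, and Rny3 102 bases on the plus strand of the same chromosome, from 47758558 to 47758659. Rnu12 spans 151 bases on the plus strand of chromosome 15, from 83033845 to 83033995. The whole sequence of each occurs at 1 place in the genome as an exact match. Each is a gene outside the introns of protein-coding genes on its strand.

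Rny3 had 35.4 CPM in mouse 16 and 27.7 CPM in mouse 55. It had 0.764, 0.673, 0.458 and 1.54 CPM in mice 194, 195, 122 and 198 and 0.404 to 1.43 CPM in WT mice (log2FC 5.16 ± 0.31 SE, adjusted p = 0.000128). Rny1, which lies beside it, had 54.1 and 50.4 CPM against 1.39 to 5.30 CPM (log2FC 4.02). Both Y RNAs were above every other library in mice 16 and 55. Rnu12 had 14.8 CPM in mouse 16 and 3.69 CPM in mouse 55, against 0.375 to 0.557 CPM (log2FC 4.14). Rn7sk, the long polymerase III RNA that holds the elongation factor P-TEFb, was also higher, with 9096 and 11297 CPM against 4067 to 7113 CPM (log2FC 0.75, adjusted p = 0.0315), and a WT library reached 12935 CPM. Rny1 and Rny3 were called without either mouse.

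Small nuclear RNA genes outside same-strand introns were higher in 8 of 23 cases and lower in 3, while those inside introns were higher in none of 91 and lower in 9. Their median log2FC was −0.40 outside and −0.93 inside introns. Small nucleolar RNA genes had 7 higher and 4 lower of 95 inside introns and 2 higher and 4 lower of 74 elsewhere. Gm25395, a model of a small Cajal body RNA that lies inside an intron on its strand, rose as well, with 178 and 121 CPM in mice 16 and 55. It had 2.69 to 13.8 CPM in the other SCA1 mice and up to 29.9 CPM in WT mice (log2FC 4.59 ± 0.40 SE). Scarna6, also inside an intron, had 24.5 and 19.6 CPM against 4.42 ± 1.29 CPM (SD, n = 4) in the other SCA1 mice (log2FC 2.33). Of the 32 named small nucleolar and Cajal body RNAs that were tested, 4 (12.5%) were higher and 1 lower, near the 10.5% higher of all genes. Rn18s-rs5, a copy of the 18S ribosomal RNA, had 1118 CPM in mouse 16 and 4704 CPM in mouse 55, against 366, 1023, 519 and 1041 CPM in mice 194, 195, 122 and 198 (log2FC 1.73 ± 0.46 SE, adjusted p = 0.0253). Mouse 16 thus lay just above mice 195 and 198, and mouse 55 far above every library. Only fragments that map once are counted, so the level of this multicopy RNA is uncertain.

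Gene models inside introns held many of the lower calls. Of 1677 TEC models, transcribed stretches whose coding status is to be tested, 501 (29.9%) were lower and 21 higher, against 4.78% and 13.2% of 14675 protein-coding genes. Inside an intron of a protein-coding gene on the same strand 35.5% of 1258 TEC models were lower, and elsewhere 12.9% of 419. Among long noncoding RNAs 17.7% were lower inside and 6.61% elsewhere, and among processed pseudogenes 17.7% and 7.11%. These shares were not compared by a test. In all, 596 of the 1544 lower genes (38.6%) were noncoding or unclassified models inside such introns. These models were 2301 of the 20278 genes tested. A count on such a model cannot be told apart from unspliced transcript of its host gene, and the share of fragments outside exons was lower in the same 2 libraries.

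**Figure D5:**
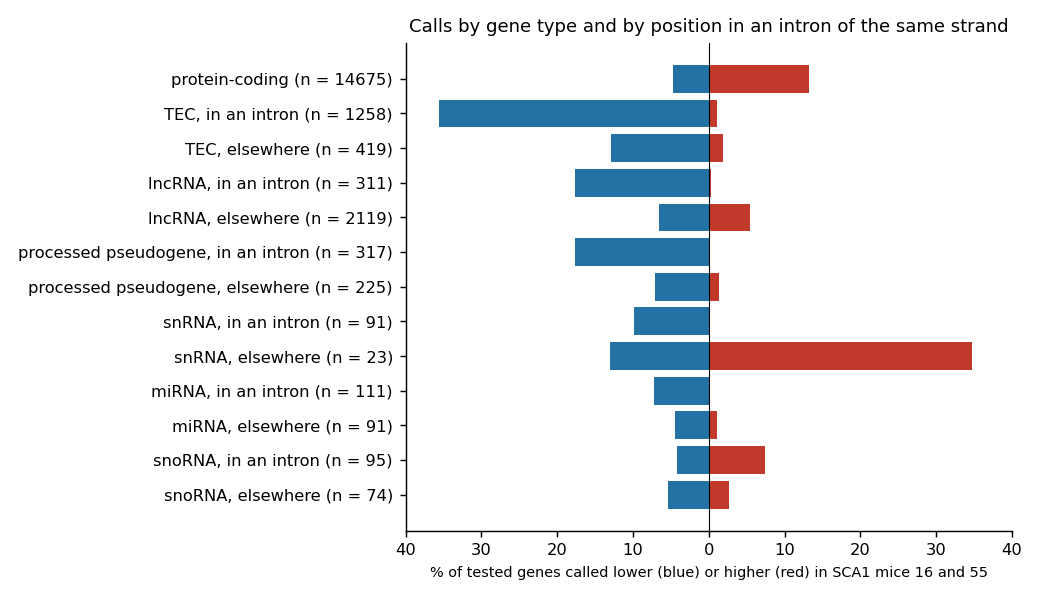
Share of tested genes called lower (blue, left) or higher (red, right) in mice 16 and 55 (x axis, percent), by gene type and by whether the model lies in an intron of a protein-coding gene on the same strand (y axis, with the number tested). TEC models in introns were lower in 35.5% of cases and small nuclear RNA genes elsewhere were higher in 34.8%.

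RNAs retained in the nucleus gave the same direction in part. Of 9 listed nuclear long noncoding RNAs, Snhg14, Kcnq1ot1 and Mirg were lower. Snhg14, the host of a brain snoRNA cluster, had 507 and 600 CPM against 894 to 1068 CPM (log2FC −0.81, adjusted p = 0.00719). Malat1, the most abundant of them, had 9491.5 CPM in mouse 16 but 16023 CPM in mouse 55, against 15305 to 17947 CPM in the other SCA1 mice, and was not called (adjusted p = 0.252). Miat was higher, with 134 and 85.6 CPM against 13.9 to 37.3 CPM (log2FC 2.24). None of the 9 was called without mouse 16.

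Transcript length and base composition went with small differences. Over protein-coding genes the median log2FC fell from 0.23 in the quintile with the shortest transcripts to −0.07 in that with the longest (Spearman's rho −0.19 across genes), and it rose from −0.04 to 0.15 from the lowest to the highest quintile of GC content (rho 0.13). Ribosomal protein genes, short and translated in every cell, were higher in 24 of 82 cases (29.3%) and lower in none, with a median log2FC of 0.41. Nuclear genes of oxidative phosphorylation were higher in 15 of 88 cases (17.0%, median 0.35), and histone cluster genes in 7 of 47 (14.9%, median 0.39), 6 of them H4 genes, against 13.2% of all protein-coding genes. Ribosomal protein and histone genes have near-identical copies, so their unique counts are uncertain. All of these counts were 0 without mouse 16, and the oxidative phosphorylation count was 6 with size factors from protein-coding genes. Without mouse 122 or 195 the ribosomal protein count was 8 and 9 and the oxidative phosphorylation count 3 and 3, and without mouse 198 the former was 40.

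Immediate early genes are switched on by neurons and damaged tissue within minutes. Of 18 tested, 4 (22.2%) were higher, Fosb, Egr3, Nr4a2 and Nr4a3, against 13.2% of all protein-coding genes, and none was lower. Summed over the list, mouse 16 had 391 CPM, the highest of the 12 libraries, and mouse 55 had 224 CPM, against 201 to 296 CPM in the other SCA1 mice. Fos itself had 45.8 CPM in mouse 16 and 7.06 CPM in mouse 55 against 2.55 to 15.4 CPM (adjusted p = 0.0865). The count was 0 without mouse 16 or mouse 195 and 2 without mouse 55. Of 12 heat shock genes 2 (16.7%) were higher, Hsph1 and Hspe1, a count of 0 to 5 when 1 library was left out. All 12 lay above the other 4 SCA1 libraries in both mice, against 26.2% of all genes, with a median log2FC of 0.46. The part of handling in the results was not tested. No blood gene was called (0 of 5). Of the protein genes of the mitochondrial genome, mt-Nd6 was higher and the other 10 were not called. Xist and genes of the Y chromosome placed mouse 16 with 195 and 198 and mouse 55 with 194 and 122, so the 2 libraries were not of 1 sex.

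The largest single changes by rule, which leaves out names made of Gm and a number, were, among the higher genes, Hoxb8, Hoxb5, Hoxa5, Hoxb3, Slc18a3, Rny3, Htr1a, Irs4, Slc5a7, Cbln2, Ecel1 and Dlk1. Cbln2 had 18.2 and 7.85 CPM in mice 16 and 55 and at most 1.95 CPM in the other SCA1 mice, but 7.92 CPM in WT mouse 192. Dlk1, an imprinted membrane protein of monoamine and other neurons, had 43.8 and 23.4 CPM in mice 16 and 55 and 8.74 CPM in mouse 194, against 0.125 to 0.600 CPM in mice 195, 122 and 198. Irs4, an adaptor of the insulin receptor, had 10.6 and 2.42 CPM against 0 to 0.976 CPM. The lower genes were smaller in change, from Mndal (log2FC −1.73) to Gdpd3 (−1.33). Mndal, another interferon-inducible gene, had 3.14 and 1.63 CPM against 6.42 to 9.90 CPM, and WT mice had 2.30 to 5.72 CPM. Adamts18 had 34.7 and 27.8 CPM in mice 16 and 55, 66.8 to 94.7 CPM in the other SCA1 mice and 42.4 to 55.1 CPM in WT mice (log2FC −1.39 ± 0.13 SE, adjusted p = 0.0004). The other lower genes were Ifi203, Strc, Prr15, Rnf133, Tas2r135, Paupar, Phxr4, Prrt2 and Airn.

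Over all genes tested, 10.5% were higher and 7.61% lower. The Hox, brainstem neuron and projection neuron lists held 37 of the 2124 higher genes, out of 41 tested. None of the 15 Hox genes and 4 of the 17 brainstem genes had 10 counts in each library. Most of these genes thus passed the filter through mice 16 and 55. The gene lists were also chosen with earlier results of these data known, so the tallies by list are a description. The 4 glial lists held 41 of the higher genes, out of 62 tested. Short RNA types held 30 of the higher genes (5.17% of the 580 tested, below the 10.5% of all genes) and 45 of the lower ones. The median log2FC was −0.86 for small nuclear, −0.50 for small nucleolar and −0.53 for micro RNA genes. It was 0.57 for small Cajal body RNA genes. Ribosomal protein, oxidative phosphorylation and histone lists held 46 higher genes, out of 217 tested. Protein-coding genes outside these lists and outside the ependymal, choroid plexus, meningeal and cerebellar neuron lists made up 84.8% of the higher genes. They were also 14285 of the 20278 genes tested, and the lists describe a small part of the difference. Some of them belong to lists not counted here, such as the midbrain and forebrain, endothelial, immediate early and heat shock lists. Of the lower genes, TEC, long noncoding and pseudogene models made up 50.8%, and they were 4894 of the 20278 genes tested. The cerebellar neuron lists held 8 lower genes, out of 37 tested. Both kinds of difference, by cell type and by kind of RNA, were seen in the same 2 libraries, so their contributions cannot be told apart here.

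The 2 libraries also bear on the comparison of SCA1 sedentary with WT sedentary mice, of which mouse 16 is 1 of 3 SCA1 mice. With a term for the 2 libraries in a model of all 12, edgeR called 126 of 20992 genes (0.6%), 43 higher and 83 lower in SCA1. No WT library carries this term, so it takes up much of the difference of mouse 16. The SCA1 side of the comparison then leans on mice 194 and 195. Without that term it called 7, all of them among the 126, and the coefficient of biological variation was 0.219 in place of 0.138. With the 2 libraries left out it called 205, of which 108 were shared, 85.7% of the 126 and 52.7% of the 205. Calb1 was lower in SCA1 sedentary mice in each (log2FC −0.78 with the term, −0.82 without it and −0.73 with the libraries left out). Mbp had a log2FC of −0.30 with the term (adjusted p = 0.413) and of 0.23 without it (adjusted p = 0.868), and neither value passed the test. The count fell to 35, 26, 79, 69, 51 and 50 without mouse 116, 117, 121, 122, 197 or 201, and rose to 204, 202 and 210 without mouse 16, 192 or 194, of which 116, 117, 121, 192, 197 and 201 are WT.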

How the data were processed

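Cerebellar RNA of 12 mice was measured by RNA-seq, 1 library per mouse. Per the labels, the authors trimmed reads with fastp 0.24.0, checked them with FastQC 0.11.9 and aligned them to mm39 (GRCm39) with STAR 2.7.10a. The deposited values are raw counts of uniquely mapped fragments per gene on each strand, and the annotation release is not given in the sources used here. The reverse-strand column was used for 56941 genes, of which 56323 matched GENCODE M39. Rows that name no gene were left out of library sizes and gave the library shares. The multimapping row took 2.08% to 6.38% of fragments, the row of unmapped fragments 2.52% to 5.17%, that without a feature 39.3% to 58.7% and the ambiguous row 0.558% to 1.18%. Counts on genes were 20556802 to 32127508 per library, and counting intervals and floors cover counting error only.

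The 6 SCA1 libraries were fitted with edgeR 4.0.16 (R 4.3.3) by quasi-likelihood, with TMM factors, filterByExpr and terms for treatment and library class, so every adjusted p is from edgeR with Benjamini-Hochberg adjustment over all genes tested. Standard errors were taken from the F statistic. Library shares were tested by an exact permutation within treatment. The scripts were tested on simulated data. Alternatives were DESeq2 1.42.0, other size factors and filters, unstranded counts, no treatment term, all 12 libraries, a term for Y-linked level, no X and Y genes, no fold limit and leaving out each library. The library classes and gene lists were chosen with earlier results of these data known. Genes were named by a rule (up to 12 of the largest changes in each direction on the same side in both treatments, at a mean log2 CPM no lower than 1, without pseudogenes or names made of Gm or Rik numbers, the 4 most abundant tested members of each list, every tested gene of the Hox list, Atxn1, Calb1 and Ttr). The others, such as Chat, Slc6a4, Dbh, Glra1, Gfap, Foxj1, Rn18s-rs5 and Gm25395, were chosen after their values were seen. p-values measure the spread between mice of this cohort.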

Additional observations from a re-analysis of the deposited data

Results flagged for a closer look

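Of 44 measures checked in the other 4 SCA1 libraries, 4 had a library whose gap to the nearest of the others exceeded Dixon's critical value for 4 values, and chance flags about 1 in 20. SCA1 sedentary mouse 194 stood apart with a summed level of 47.4 CPM for brainstem neuron genes and of 40.4 CPM for ependymal genes. SCA1 exercise mouse 122 stood apart with 20.7 CPM for blood genes and 9040.1 CPM for Purkinje cell genes.

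In DESeq2, the difference of mouse 16 from its group and that of mouse 55 from its group differed for 42 genes, 41 of them with a larger value in mouse 55, by a test of the interaction of library class and treatment. The exception was Slc15a2, a peptide transporter. In 39 of the 42, mouse 16 had the lowest count of the 6 libraries, and 18 were long noncoding or TEC models. edgeR called 0 genes, with a lowest adjusted p of 0.469 among these 42. This interaction sets mouse 55 minus mice 122 and 198 against mouse 16 minus mice 194 and 195. Each side has 1 high multimapping library, so its p-values take their spread from the other 4 SCA1 libraries. Differences among those 4 also enter it. For Slc15a2, mice 16 and 55 had 17.9 and 24.5 CPM, mice 194 and 195 had 5.56 and 5.72 CPM, and mice 122 and 198 had 36.7 and 62.3 CPM.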

How the results depend on the processing

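Over the alternatives that kept all 6 libraries, 1769 to 2650 genes were higher and 1463 to 2079 lower, against 2124 and 1544. Leaving out 1 library gave 46 to 2373 higher and 2 to 1758 lower genes, the lower count being 725 without mouse 122 and 982 without mouse 195. DESeq2 called 42 genes for the interaction in place of 0. For SCA1 against WT sedentary mice, the 126 calls became 7 without the library class, 205 with the 2 libraries left out and 355 in DESeq2, and 26 to 210 when 1 library was left out; the cause was not tested. Of 98 named genes that were called, 17 kept their call without mouse 16, 82 without mouse 55 and 88 in DESeq2. Of the 28 list counts under each alternative, 396 stayed within 1.5 times and 80 did not. No named call reversed. All 27 library share comparisons under alternatives kept their direction. No paired analysis was possible because the groups share no replicate numbers. Depth limited the Hox and brainstem genes, where 3 counts correspond to 0.0946 to 0.144 CPM per library.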

Other observations

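The 48 genes called in mouse 55 alone, without mouse 16, held several that belong to none of the lists and were named after their values were seen. Drd2, a dopamine receptor, had 10.3 and 6.03 CPM in mice 16 and 55 against 0.292 to 0.636 CPM in the other SCA1 mice, and a WT mouse had 4.30 CPM. Scn9a, a sodium channel gene, had 9.94 and 4.48 CPM against 0.0857 to 0.891 CPM. The channel and transporter genes of glia Kcnj10 and Slc6a11 were higher too: Kcnj10 had 348 and 378 CPM against 166 to 194 CPM, and Slc6a11 had 335 and 193 CPM against 42.0 to 69.0 CPM. Col11a1, a collagen chain, had 17.0 and 14.6 CPM against 2.75 to 6.20 CPM. These 5 genes were also called from mouse 16 without mouse 55, whereas Tac2, a neurokinin precursor, was called in mouse 55 only (adjusted p = 0.0911 in edgeR without mouse 55), and that difference was not tested.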
